A study of Mus musculus with 6 samples.

Results

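The 10 genes described here are immediate early and dissociation response genes: Fos, Fosb, Jun, Junb, Jund, Atf3, Ier2, Ier3, Dusp1 and Egr1. All 10 were measured, of 22180 genes on the arrays that could be named. Each is represented by a probe set that lists 1 gene, and for Jund, which has 2 such probe sets, by the one with the higher mean over the 6 arrays. Their levels were compared between 3 arrays of Ebf2-GFP positive cells and 3 arrays of Ebf2-GFP negative cells. Both groups were PDGFRα-positive cells sorted from the dorsal body wall of strain 129SV mouse embryos at E14.5, and the embryos of both groups were Ebf2(GFP)/+, with GFP marking cells in which Ebf2 is expressed. Whether a sample pooled several embryos is not said. The labels number the replicates 1 to 3 in each group, and do not say what a number shares or whether the replicates were separate litters, so the p-values speak only of how far these samples spread, and that spread may be technical.

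Immediate early genes are transcribed within minutes of a stimulus, from factors already present in the cell and without new protein synthesis. Many encode transcription factors, such as the Fos and Jun proteins that pair to form AP-1 and bind DNA at its target genes, and others encode proteins that shut the response down. Because warm enzyme digestion and sorting are themselves stimuli, these transcripts are widely read as signs of cell dissociation. Here the tissue was kept for 40 min at 37 °C in 6.1 mg/ml collagenase with 2.4 mg/ml dispase, and the filtered cells were then stained for 30 min at 4 °C before the sort. Undigested tissue was not analysed here, so how much of any level was induced by the preparation was not tested.

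The deposited values are log2 expression values, on which a difference of 1 is a factor of 2 (arrays' medians between 6.657 and 6.712). No member lay below 6.78, the 40th percentile of gene means, which served as a mark of dim genes because the files hold no detection calls. The sort was checked first: Ebf2 stood at 8.16, 8.60 and 9.21 in the negative arrays and at 12.04, 12.04 and 11.93 in the positive arrays, and Pdgfra lay between 12.90 and 13.24 in all 6 (change 0.19 ± 0.06 SE, limma adjusted p = 0.178). All 8 mesenchymal fibroblast markers, Col1a1 and Dcn among them, had group means above the dim mark in both groups, as had all 8 endothelial markers. Of 16 macrophage markers, 16 had a mean above it in the negative group and 12 in the positive group. Between the groups, 2 of the 8 fibroblast markers were lower in positive cells (Thy1, −1.95 ± 0.08 SE, adjusted p = 0.000276, and Lum, −0.34 ± 0.07 SE, 0.0295). Of the endothelial markers, 1 was lower (Cdh5, −0.998 ± 0.16 SE, 0.0160) and 1 higher (Emcn, 0.94 ± 0.16 SE, 0.0214). In bulk samples such as these, fewer cells of a type and less RNA per cell cannot be told apart.

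Promoter sequence from RefSeq (build GRCm38.p6) was matched for 8 of the 10 genes, and not for Ier2 and Egr1, which were therefore not searched. The 250 bases before the annotated start of 4 of them are shown. Atf3, Ier3 and Dusp1 were picked because only they passed limma's adjusted p under 0.05 when same-numbered arrays were treated as pairs. That pairing was inferred from the data. Fos is the classic immediate early gene and passed neither with the pairing nor without it. Capitals mark the searched motifs, which were the cyclic AMP response element TGACGTCA, the AP-1 sites TGACTCA and TGAGTCA, the TATA motif TATAA, the motif CCAAT and the CArG box bound by serum response factor, each on both strands. The windows lie at chr12:85473640-85473889 (plus strand) for Fos, chr1:191183334-191183583 (minus strand) for Atf3, chr17:35821463-35821712 (plus strand) for Ier3 and chr17:26508473-26508722 (minus strand) for Dusp1. All are printed 5′ to 3′ in the direction of the gene.
Fos: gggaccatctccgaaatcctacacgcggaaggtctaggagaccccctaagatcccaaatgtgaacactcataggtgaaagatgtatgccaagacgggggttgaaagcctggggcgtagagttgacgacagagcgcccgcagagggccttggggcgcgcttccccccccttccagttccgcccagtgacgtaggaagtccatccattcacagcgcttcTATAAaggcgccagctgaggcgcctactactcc
Atf3: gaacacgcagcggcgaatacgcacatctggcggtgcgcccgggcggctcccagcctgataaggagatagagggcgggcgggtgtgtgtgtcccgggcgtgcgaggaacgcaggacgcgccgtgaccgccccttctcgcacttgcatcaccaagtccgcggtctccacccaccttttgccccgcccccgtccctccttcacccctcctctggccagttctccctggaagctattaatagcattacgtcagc
Ier3: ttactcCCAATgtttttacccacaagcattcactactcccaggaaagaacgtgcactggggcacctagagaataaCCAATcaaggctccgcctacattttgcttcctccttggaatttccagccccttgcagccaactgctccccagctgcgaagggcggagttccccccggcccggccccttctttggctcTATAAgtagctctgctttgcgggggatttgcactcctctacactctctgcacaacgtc
Dusp1: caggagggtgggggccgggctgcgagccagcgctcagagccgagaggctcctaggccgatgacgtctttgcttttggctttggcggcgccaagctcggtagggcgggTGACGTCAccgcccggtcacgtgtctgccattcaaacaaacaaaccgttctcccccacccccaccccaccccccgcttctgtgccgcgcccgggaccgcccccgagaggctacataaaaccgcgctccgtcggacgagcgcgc

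Counted from the start site, TATAA lies at −33 to −29 in Fos and at −58 to −54 in Ier3, and 22.8% of all 32851 windows of this length hold it. The response element TGACGTCA lies at −143 to −136 in Dusp1, and 1.55% of windows hold it. CCAAT is found in 3 of the 8 members' windows (Jun, Junb and Ier3, the last with 2 copies) and in 33.8% of all windows. The window of Atf3 holds none of the searched letters. AP-1 sites (4.46% of windows) and the CArG box (1.47%) were found in none of the 8. A match of letters is a description and no evidence of binding, and a missing match says only that these letters are not in this window.

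None of the 10 genes passed between the sorted groups in limma's test over all genes (0 higher and 0 lower at an adjusted p under 0.05, and 1 at an unadjusted p under 0.05), where 6.49% of all genes passed, 3.84% passed as lower and 17.7% had an unadjusted p under 0.05. The arrays of the 2 groups overlapped for all 10 members, and were apart for 22.0% of all genes. The median log2 change of the members, positive minus negative, was −0.09, beside 0.02 for all genes. For most members, though not for Ier3, the level varied more between replicate numbers than between the groups. The array numbered 2 was the highest of its group in both groups for 8 of 10 members, a pattern found in 16.2% of all genes and noticed only after the values were seen. The plot of the members' levels shows both features together.

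**Figure D1:**
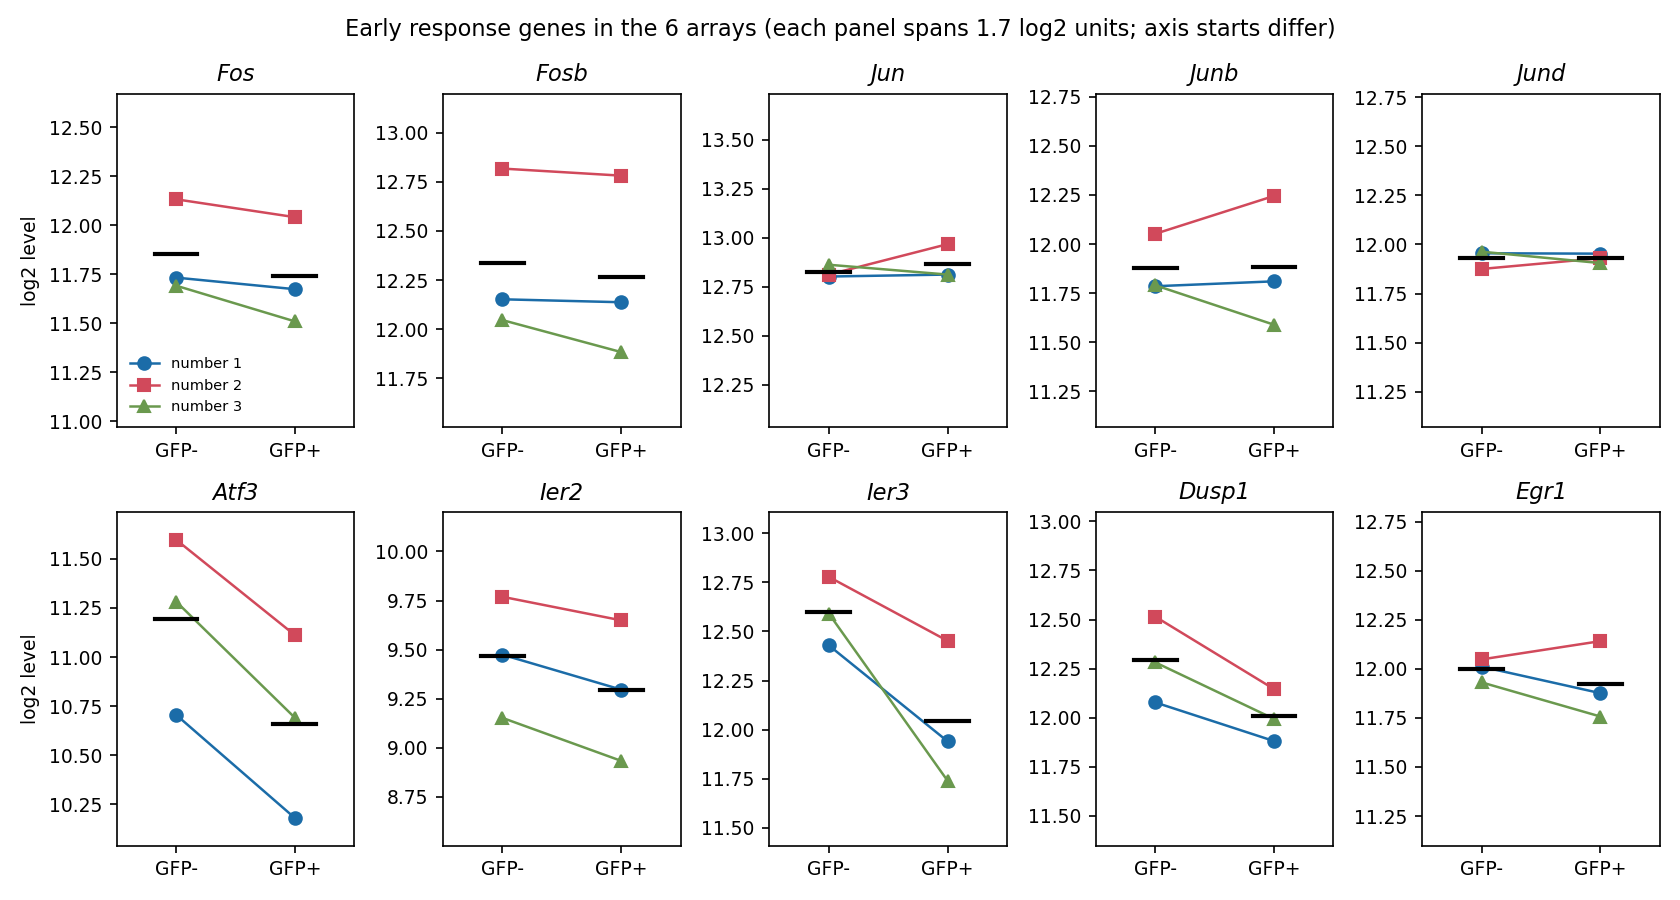
Log2 level (y axis) of each of the 10 genes in GFP-negative and GFP-positive arrays (x axis). Points of 1 colour and shape are arrays of the same replicate number, joined by a line, and black bars are group means (n = 3). Number 2 lies on top in both groups for 8 genes, and all lines slope down for Fos, Fosb, Atf3, Ier2, Ier3 and Dusp1.

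Fos and Fosb encode the Fos partners of AP-1. The log2 level of Fos was 11.73, 12.13 and 11.69 in negative arrays 1, 2 and 3 and 11.67, 12.04 and 11.51 in positive arrays 1, 2 and 3. Fosb stood at 12.15, 12.82 and 12.05 in the negative arrays and at 12.14, 12.78 and 11.88 in the positive ones. For both genes array 2 was the high one of each group, array 3 the low one, and the groups overlapped almost fully. The change of Fos was −0.11 ± 0.17 (SE, limma adjusted p = 0.812, 95% interval −0.51 to 0.29), and that of Fosb −0.07 ± 0.28 (SE, adjusted p = 0.935, interval −0.75 to 0.60). Same-numbered arrays, however, lay close together: positive minus negative was −0.06, −0.09 and −0.18 for Fos and −0.02, −0.04 and −0.16 for Fosb in numbers 1, 2 and 3. Array 2 exceeded the mean of the other arrays of its group by 0.42 and 0.45 for Fos, and by 0.72 and 0.77 for Fosb, in negative and positive cells.

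Jun, Junb and Jund encode the Jun partners, which can bind DNA with each other as well as with Fos proteins. Junb behaved like Fos, with log2 levels of 11.79, 12.05 and 11.79 in the negative and 11.81, 12.24 and 11.59 in the positive arrays. Array 2 was again the highest in each group, and the change of 0.01 ± 0.17 (SE, adjusted p = 0.992) took no consistent direction, at 0.03, 0.19 and −0.20 in numbers 1, 2 and 3. Jun was nearly flat, at 12.80, 12.81 and 12.86 in the negative and 12.81, 12.97 and 12.81 in the positive arrays (change 0.04 ± 0.06 SE, adjusted p = 0.826). Jund, a Jun gene that many cells express without stimulation, had the narrowest range of the 10 members, 0.09 over all 6 arrays, with levels of 11.96, 11.88 and 11.96 in the negative and 11.95, 11.93 and 11.90 in the positive arrays. Its change was −0.001 ± 0.05 (SE, adjusted p = 0.994, interval −0.13 to 0.12). Against the mean of the other arrays of its group, array 2 stood at −0.02 (negative) and 0.155 (positive) for Jun, at −0.08 and 0.001 for Jund, and at 0.26 and 0.55 for Junb. The other Jund probe set, with a mean of 8.25, differed by −0.09 (adjusted p = 0.594 where limma was run on all probe sets separately).

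Atf3, a stress-induced factor of the ATF family that can pair with Jun proteins, had the widest range of the members, 1.42. Its log2 level was 10.71, 11.60 and 11.28 in negative arrays 1, 2 and 3 and 10.18, 11.11 and 10.69 in positive arrays 1, 2 and 3. The groups overlapped, yet every positive array lay below the negative array of its number, by nearly the same amount: the differences were −0.53, −0.49 and −0.59. The change of −0.53 ± 0.29 (SE) corresponds to a 1.45-fold lower level and did not pass without pairing (limma adjusted p = 0.426). With the replicate number as a block the SE was 0.05 and the gene passed (adjusted p = 0.00618).

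Egr1, a zinc finger factor of early growth response, stood at 12.01, 12.05 and 11.93 in the negative and 11.88, 12.14 and 11.76 in the positive arrays. The groups overlapped, with differences of −0.14, 0.09 and −0.17 in numbers 1, 2 and 3 (change −0.07 ± 0.10 SE, adjusted p = 0.795). Ier2, an early response gene whose product is found in the nucleus, was at 9.47, 9.77 and 9.15 in the negative and 9.30, 9.65 and 8.93 in the positive arrays. It was highest in number 2 and lowest in number 3 in both groups, as were Fos, Fosb and Egr1. Its change was −0.17 ± 0.22 (SE, adjusted p = 0.763, interval −0.69 to 0.34), and it did not pass with the block either (adjusted p = 0.116), although the differences of −0.18, −0.12 and −0.22 were all negative.

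Ier3, a stress-inducible gene linked to cell survival, showed the lowest unadjusted p of the 10 between the groups. Its log2 level was 12.43, 12.78 and 12.59 in the negative and 11.94, 12.45 and 11.74 in the positive arrays, so that positive array 2 alone reached into the range of the negative group. The change was −0.56 ± 0.19 (SE), a 1.47-fold lower level (adjusted p = 0.175, or 0.0390 with the block), with differences of −0.49, −0.33 and −0.85. Without positive replicate 2 the gene passed also unpaired (−0.76, adjusted p = 0.0450).

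Dusp1 encodes a phosphatase that switches off MAP kinases and so ends the signal that induces many early genes. It was at 12.08, 12.52 and 12.28 in the negative and at 11.88, 12.15 and 11.99 in the positive arrays, with number 2 highest and number 1 lowest in each group, the same order as for Atf3. The differences of −0.20, −0.37 and −0.29 gave a change of −0.28 ± 0.12 (SE, adjusted p = 0.300), and the gene passed with the block (adjusted p = 0.0422). With the block it did not pass when each array was centred on the median of its probe sets (0.0657) or of its genes (0.0747).

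With the replicate number as a block, therefore, 3 of 10 members passed as lower in GFP-positive cells (Atf3, Ier3 and Dusp1) and 0 as higher, where 5.49% of all genes passed as lower. The positive array was the lower one in all 3 same-numbered pairs for 6 members, those 3 with Fos, Fosb and Ier2, and for 18.7% of all genes. That numbers pair the arrays was inferred from the data, and these calls depend on it. They were also thin: leaving out an array of number 1 or 2 left only Atf3 (adjusted p = 0.0419 and 0.0357), and leaving out an array of number 3 left none (Atf3 at 0.0514). The block removes the arrays' shared deviation and leaves every log2 change as it was, as the plot of changes shows.

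**Figure D2:**
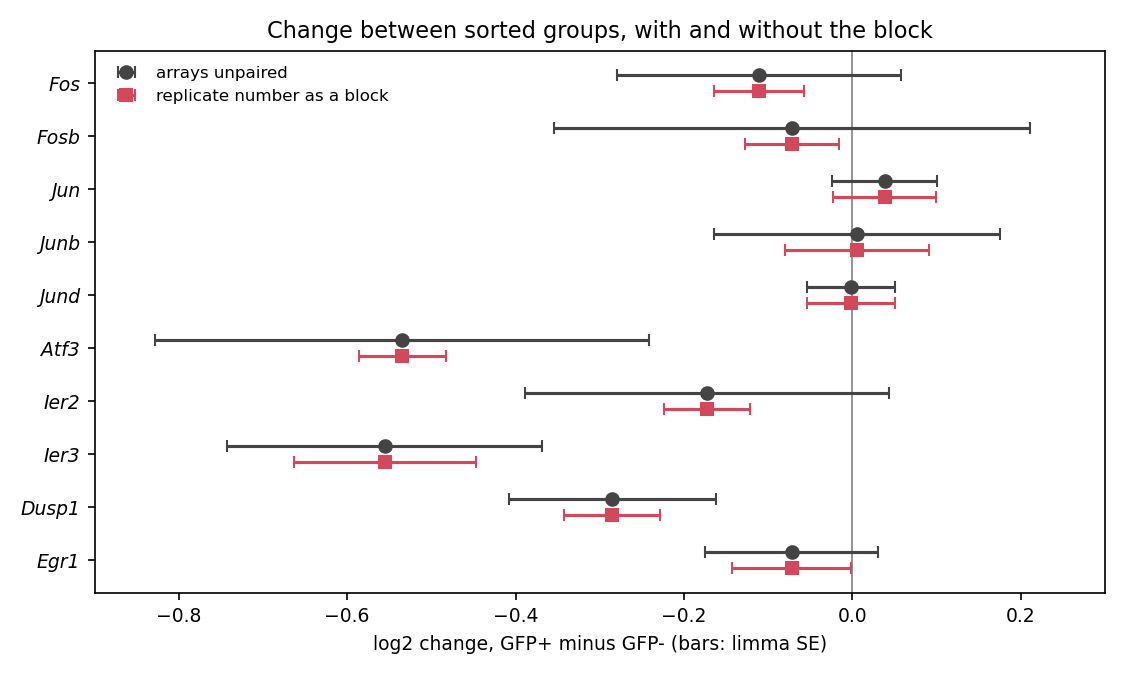
Log2 change (x axis, GFP-positive minus GFP-negative, 3 arrays each) of the 10 genes (y axis), with bars of 1 limma standard error. Dark circles are the fit of unpaired arrays and red squares the fit in which replicate number is a block, whose bar for Atf3 shortens from 0.29 to 0.05.

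Macrophage markers were lower in the same comparison: all 16 passed as lower, and the median of their log2 changes was −2.05. Their mean log2 level in numbers 1, 2 and 3 was 9.74, 9.24 and 10.09 in the negative arrays and 7.08, 7.76 and 8.02 in the positive ones. It was highest in number 3 in both groups, and lowest in number 2 among the negative and in number 1 among the positive arrays. Atf3, Ier3 and Dusp1 were all highest in number 2 in both groups. Atf3 and Dusp1 were lowest in number 1 in both groups, and Ier3 in number 1 among the negative and number 3 among the positive arrays. The part of macrophages in the lower Atf3, Ier3 and Dusp1 levels was not tested.

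The variation between numbers was then described for each member, by dividing the sum of squares over the 6 arrays into the part between sorted groups, the part between numbers and the remainder. The part between numbers was 98.2% for Fosb, 92.1% for Fos, 90.4% for Ier2 and 85.4% for Junb, against 1.0%, 6.5%, 9.1% and 0.0% between sorted groups. It was 68.9% for Egr1 and 66.1% for Atf3, and for Dusp1 the parts were close to equal (49.0% between numbers, 48.1% between groups). Ier3 alone had the larger part between the sorted groups (58.2%, with 32.6% between numbers). Jun and Jund, with their narrow ranges, left more than 50% as remainder. The median part between numbers was 67.5% over the members and 42.3% over all genes.

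**Figure D3:**
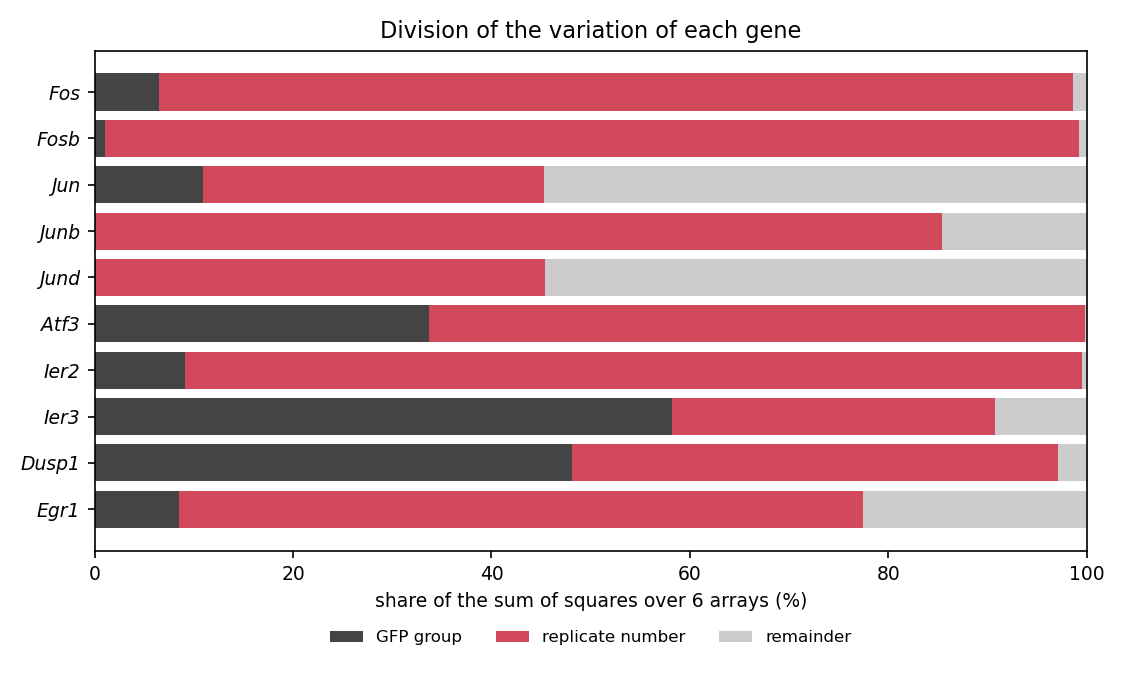
Share of the sum of squares over 6 arrays (x axis, percent) that lies between sorted groups, between replicate numbers and in the remainder, for each gene (y axis). The red part between numbers is over 85% for Fos, Fosb, Junb and Ier2, and the dark part between groups is the larger only for Ier3.

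In limma's test of the replicate number beside the group, a test added after the values were seen, 1 of 10 members passed at an adjusted p under 0.05 (Atf3, 0.0423), where 0.221% of all genes passed, and 7 had an unadjusted p under 0.05, where 15.6% of all genes did. Fosb (adjusted p = 0.0535), Ier2 (0.0810) and Fos (0.141) did not pass. The means of the numbers, over both groups, spanned 0.91 for Atf3 (1.88-fold), 0.84 for Fosb (1.78-fold), 0.67 for Ier2 (1.59-fold) and 0.49 for Fos (1.40-fold). The order of the 3 numbers was the same in both groups for 6 of 10 members, and for 28.2% of all genes. In 4 of these (Fos, Fosb, Ier2 and Egr1) the order was 2, 1, 3 from high to low, and in Atf3 and Dusp1 it was 2, 3, 1. With any 1 array left out, 0 members and 0 to 8 of all genes passed, in a fit with 1 array fewer for the same number of terms.

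Most endothelial markers were also high in number 2. Of 8, 6 were highest in number 2 in both groups, a pattern found in 16.2% of all genes. The mean log2 level of the 8 was 8.80, 9.51 and 9.08 in negative arrays 1, 2 and 3 and 8.79, 9.15 and 9.02 in positive arrays 1, 2 and 3. None of the 8 passed limma's test of the number (0 at an adjusted p under 0.05, where 0.221% of all genes passed). All but Emcn (0.166) had an unadjusted p under 0.05 in that test, from 0.000398 (Cldn5) to 0.0339 (Kdr). These include Cdh5 (0.00399) and Tek (0.0110), which were highest in number 3 in both groups. Of all genes, 15.6% had an unadjusted p under 0.05. Among the mesenchymal fibroblast markers 0 of 8 were highest in number 2 in both groups, and their median span between numbers was 0.09, beside 0.45 for the members and 0.14 for all genes. These markers had mean log2 levels of 12.70 to 13.02 in the 6 arrays, and the members 11.48 to 12.04. Whether the level affected the span was not tested. The span was wider than the members' for the lists of other immediate early transcription factors (0.54) and of endothelial (0.60), inflammatory (0.69) and macrophage (0.75) genes. Whether endothelial cells had a part in the members' pattern was not tested.

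Other genes of the early response came from 5 lists with 73 measured genes, and 6 of the 73 were lower and 0 higher in GFP-positive cells (20 and 1 with the block). Of all 22180 genes, 851 were lower and 588 higher (1218 and 1010 with the block). Among the 5 lists, the one of other immediate early transcription factors held 15 measured genes, of which 0 passed in either direction (5 lower and 0 higher with the block), with a median log2 change of −0.22. As many as 11 of the 15 were highest in number 2 in both groups, as were 16.2% of all genes. The orphan nuclear receptor genes Nr4a1, Nr4a2 and Nr4a3, which respond to many of the same signals, passed with the block (adjusted p = 0.0225, 0.0325 and 0.0181). None of the 3 passed unpaired (0.553, 0.618 and 0.552). Number 2 stood far above the others for Nr4a3 in both groups, at 9.38, 11.00 and 9.51 in the negative and 8.53, 10.03 and 9.07 in the positive arrays. Of the genes with the smallest p in this list, Cebpb, a factor of inflammation and fat cell formation, changed by −0.46 ± 0.14 (SE, adjusted p = 0.137) and passed with the block (0.0171). Cebpd changed by 0.57 ± 0.22 (SE, adjusted p = 0.229), Klf10 by −0.22 ± 0.09 (0.254) and Egr4 by −0.42 ± 0.17 (0.274).

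The list of other AP-1, ATF and small Maf genes had 9 measured members, of which 0 passed in either direction (2 lower with the block) and 4 were highest in number 2 in both groups. Fosl2, a further Fos family gene, was at 10.76, 11.63 and 10.99 in the negative and 10.37, 11.23 and 10.45 in the positive arrays. Its pattern was close to that of Atf3: it did not pass unpaired (−0.45 ± 0.30 SE, adjusted p = 0.524), passed with the block (0.0122), and passed the test of the number (adjusted p = 0.0486). Batf, a factor of lymphoid and myeloid cells, changed by −0.49 ± 0.12 (SE, adjusted p = 0.0745, or 0.0496 with the block), Batf3 by 0.25 (0.323) and Jdp2 by 0.16 (0.567). The other genes of these lists that passed the test of the number were Egr2 (0.0264), Csrnp1 (0.0492), Il6 (0.0226) and Hspa1a (0.0264). The first 3 were highest in number 2 in both groups.

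The list named feedback regulators induced early held 24 measured genes, of which 1 was lower and 0 higher (4 lower and 1 higher with the block). Its median change was −0.13, and 16 of the 24 were highest in number 2 in both groups. The lower gene was Pim1, a serine/threonine kinase gene, at 9.78, 9.79 and 9.84 in the negative and 9.28, 9.45 and 9.11 in the positive arrays (−0.52 ± 0.09 SE, adjusted p = 0.0192). Its groups did not overlap, and it was not highest in number 2 in both. The NF-κB inhibitor gene Nfkbia changed by −0.43 (adjusted p = 0.106), Dusp2 by −0.49 (0.127, or 0.0249 with the block) and Tnfaip3 by −0.89 (0.151). Socs3, an inhibitor of cytokine signalling, pointed the other way, with higher levels in all 3 pairs (0.31 ± 0.14 SE, adjusted p = 0.319, or 0.0452 with the block).

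Heat shock genes, another mark of stressed cells, did not share the members' order. Of 12 measured genes 0 passed (1 at an unadjusted p under 0.05, 2 lower with the block), the median change was 0.07, and 2 were highest in number 2 in both groups. The chaperone gene Hspa1a was at 10.79, 10.83 and 13.05 in the negative and 9.45, 9.99 and 11.70 in the positive arrays, so that number 3, not number 2, was far above the others in both groups. Hspa1b, a near-identical copy whose signal cannot be told apart with certainty, was likewise highest in number 3, at 12.42 and 11.15. Their changes of −1.18 ± 0.78 and −1.07 ± 0.71 (SE) did not pass unpaired (adjusted p = 0.526 and 0.523) and passed with the block (0.00636 and 0.0159). Of the genes with the smallest p, the co-chaperone genes Dnajb4 and Dnajb1 changed by 0.16 (adjusted p = 0.174) and −0.11 (0.332), and the mitochondrial chaperone gene Hspd1 by 0.11 (0.345). The list had no common order: Hsph1 and Hspa5 were highest in number 1 in both groups, and Hspd1 and Bag3 in number 2.

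Early inflammatory and secreted genes were the one list in which several passed unpaired: 5 of 13 were lower and 0 higher (7 lower with the block), with a median of −0.81. The chemokine genes Ccl2 and Ccl7 changed by −1.99 ± 0.21 (SE, adjusted p = 0.00366) and −1.87 ± 0.28 (SE, 0.0122), Cxcl2 by −3.18 ± 0.51 (SE, 0.0159) and the cytokine gene Tnf by −2.88 ± 0.49 (SE, 0.0194). The fifth was Ccn2, a matricellular gene (adjusted p = 0.0499). Tnf stood at 10.95, 10.64 and 11.80 in the negative and 7.26, 8.42 and 9.06 in the positive arrays, and its groups were far apart, unlike those of any member. Within each group Tnf was highest in number 3, as the mean of the macrophage markers was, and macrophages are a known source of Tnf and Cxcl2. Their part in these differences was not tested. The plot of the lists by array sets these patterns side by side.

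**Figure D4:**
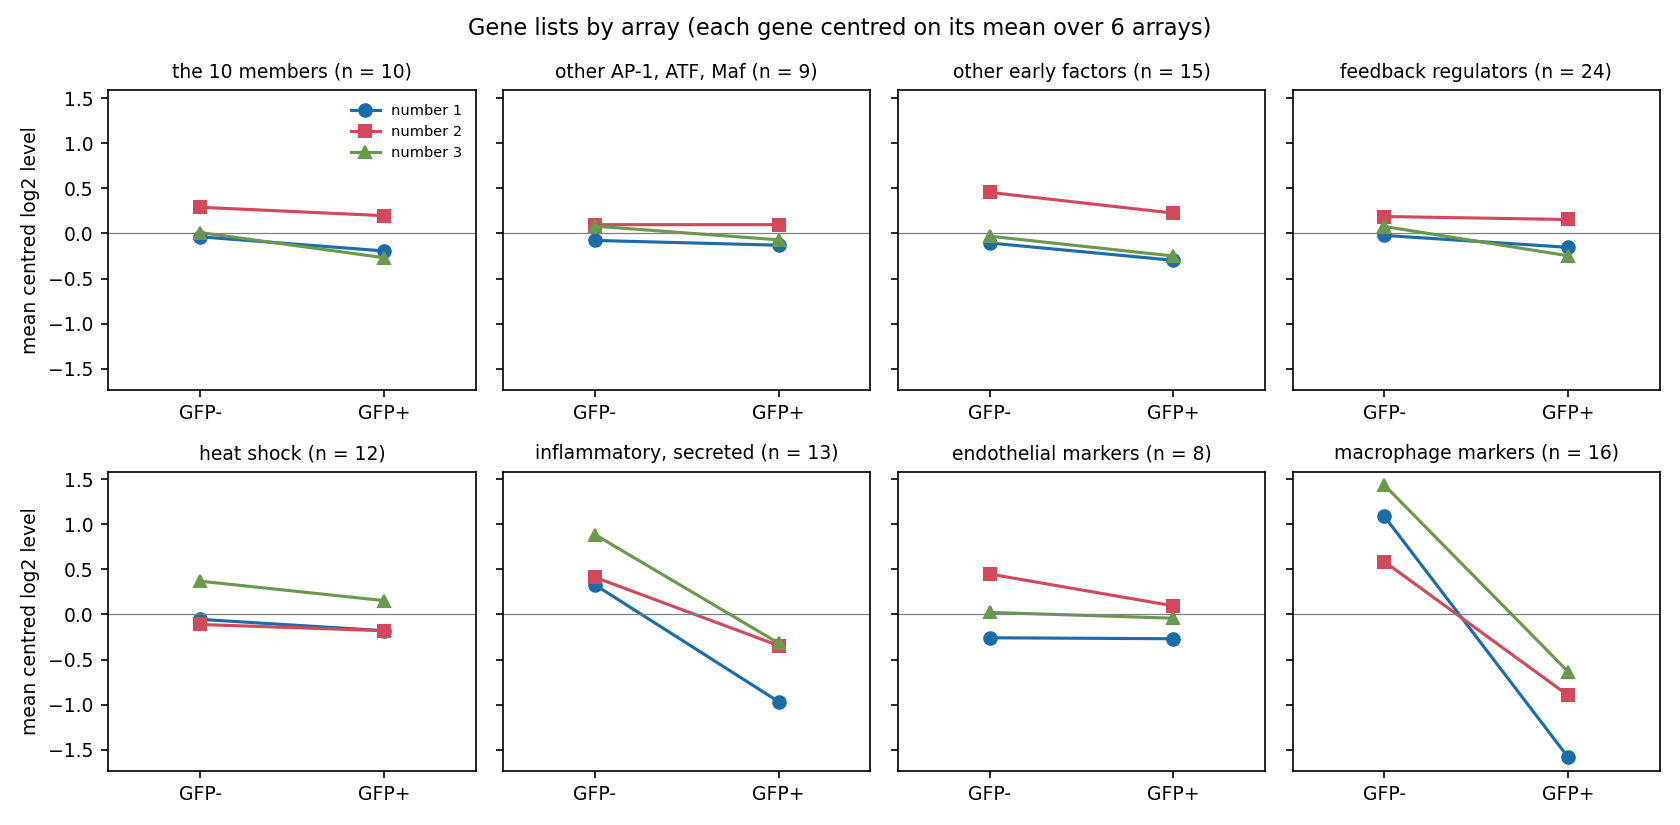
Mean centred log2 level (y axis, each gene minus its mean over the 6 arrays) of 8 gene lists in GFP-negative and GFP-positive arrays (x axis), with a line for each replicate number. Number 2 is on top in both groups for the 10 members, the other AP-1 genes, the other early factors, the feedback regulators and the endothelial markers, number 3 for heat shock genes, inflammatory genes and macrophage markers, and the steepest slopes are those of the inflammatory genes and macrophage markers.

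Among 13298 other genes above the dim mark, the 5 whose centred values over the 6 arrays were nearest to the mean profile of the 10 members were Tmem89, Kif23, Srf, Hmgb3 and Dnajc6, with root mean square differences of 0.042 to 0.070 on the log2 scale. Of these, only Srf is on a list, that of other early factors. It stood at 10.30, 10.68 and 10.25 in the negative and 10.15, 10.47 and 10.13 in the positive arrays. Nearest to Atf3, the member with the widest range, were Tpsb2, Mir1938 and Pecam1, with differences of 0.14 to 0.16. Tpsb2 and Mir1938, which are on none of the lists, were nearer than Pecam1. Tpsb2 was at 6.54, 7.66 and 7.14 in the negative and 6.40, 7.06 and 6.81 in the positive arrays. Pecam1, an endothelial marker, was at 8.55, 9.46 and 8.75 in the negative and 8.19, 8.90 and 8.51 in the positive arrays.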

How the data were processed

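RNA from the 6 sorted samples was biotin-labelled and hybridised to Affymetrix arrays. The deposited values are log2 values per probe set. RMA and limma are the tools listed in the submitters' processing notes. Versions, library files and filters were not given in the sources used here, and the scale was read from the values (3.41 to 14.32). Since RMA brings the arrays to one distribution, a change in most genes at the same time would be hidden. Of 41345 probe sets, 23521 list 1 gene in the platform table, 1814 several and 16010 none. Genes came from the former, under RefSeq symbols (GRCm38.p6) where the gene identifier matched, which altered 0 symbols, with the probe set of the highest mean for the 1082 genes that have several.

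The difference was fitted with lmFit and eBayes (limma 3.58.1, R 4.3.3) over all 22180 genes, with Benjamini-Hochberg adjustment and a threshold of 0.05. The method was tested on simulated data. Plots were made with matplotlib 3.10.9. The number of arrays limits the precision. Deviations from group means correlated at 0.408, 0.314 and 0.519 between same-numbered arrays (0.404, 0.303 and 0.511 without the early response lists) and at −0.384 to −0.024 otherwise. The numbers were therefore taken to pair the arrays, although such deviations cancel within a group and the correlations depend on each other. Members, lists and tests were chosen with earlier results of these data known. Named genes are the members, Ebf2 and Pdgfra, the 4 of smallest p in each other early response list, the nearest profiles, and genes that passed the test of the number. The latter, Nr4a1 to Nr4a3, Ccn2, Socs3 and the marker genes named singly were chosen after their values were seen. List entries with no probe set listing 1 gene were not analysed here. Of the marker lists not described in the results, 3 of 8 mural genes were lower and 1 higher, and 0 of 3 measured erythroid genes passed. The alternatives tried were a block for the replicate number, median centring, quantile normalization, dim genes removed, other choices of probe sets, a trended or a robust prior, weights for arrays, a threshold of 0.01, and each array left out. The test of the number, the count for number 2, centring on genes and the block combined with other settings were added after the data were seen.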

Additional observations from a re-analysis of the deposited data

How the results depend on the processing

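Without the block, 1 member (Ier3) passed when positive replicate 2 was left out, and 0 under the other alternatives run. With the replicate block 3 passed, all lower, and 2 or 3 when it was combined with another normalization, centring, filter, use of probe sets or prior. Over the arrays left out, 0 to 1 members passed as lower, and the members' median change ran from −0.29 (without positive replicate 2) to 0.0091 (without positive replicate 3). With the block and an array left out, 0 to 1 members were lower, since each such fit rests on 2 pairs, and with the block and either centring Dusp1 did not pass (adjusted p = 0.0657 and 0.0747). Over all genes, 588 were higher and 851 lower. The counts were 1010 and 1218 with the replicate block, 208 and 331 at an adjusted p under 0.01, and 241 to 441 and 388 to 656 with an array left out. Centring on the median of genes gave 868 and 749, so that higher genes made up 53.7% in place of 40.9%, and moved the members' median to −0.04.

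Changes near 0 took either sign over the arrays left out: Fos −0.26 to 0.029, Fosb −0.33 to 0.17, Jun −0.013 to 0.064, Junb −0.18 to 0.15, Jund −0.030 to 0.015, Ier2 −0.35 to 0.0071 and Egr1 −0.18 to 0.012. Fosb was also at 0.016 with array weights, Junb at −0.0065 after quantile normalization, and Jund at 0.0094 and 0.055 after centring on probe sets and on genes. Atf3, Ier3 and Dusp1 were negative under all alternatives run. The number was called for 1 member as first tested, 3 after median centring, 2 after centring on genes, 3 without dim genes, 4 with a trend, and 0 to 0 with an array left out. Among all genes in each fit it was called for 49, 100, 58, 79 and 123 in the same order. With an array left out it was called for 0 to 8 of all genes. For the other early response lists, 2 to 5 genes were lower with an array left out.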
